A study of Mus musculus with 2 samples.

Results

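The NEDD4 family of HECT ubiquitin ligases was examined on arrays of plasmacytoid dendritic cells (pDCs), the dendritic cells specialised in type I interferon production. Its 7 genes examined here, Nedd4, Nedd4l, Itch, Wwp1, Wwp2, Smurf1 and Smurf2, are among 19938 genes that had a probe set with their name alone. The family was chosen by its measured values, since the low value of Nedd4 on the Runx2-/- array was already known when the list was drawn up, so every difference of these genes is given as a description. For a gene with several probe sets the brightest by mean log2 was used, which concerned Smurf2. The cells were CD11b-, BST2+ and B220+ and were sorted from bone marrow of fetal liver chimeras 2 months after reconstitution, with Runx2-/- donor cells in one group and wild type donor cells in the other. Runx2, a Runt domain transcription factor, is disrupted in all donor-derived cells of the Runx2-/- group, so effects on pDCs and on their precursors are not separated, and blood cells that a host may retain are not told apart in the labels. Each group was 1 sample on 1 Affymetrix Mouse Gene 1.0 ST array, labelled from 250 ng of total RNA, and the number of mice per sample is not given. With 1 array per genotype there is no replicate check, no standard error and no p-value for any difference.

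Ubiquitin ligases of the NEDD4 family carry an N-terminal C2 domain that binds membranes, several WW domains that bind proline-rich PPxY motifs in substrates and adaptors, and a C-terminal HECT domain that takes ubiquitin from an E2 enzyme onto a cysteine and passes it to the substrate. They are known for sending membrane receptors, channels and signalling proteins to endosomes and lysosomes or to the proteasome. In immune cells Itch and Nedd4 are best known from T cells, where Itch restrains activation by degrading JunB and Nedd4 promotes activation by acting on Cbl-b.

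Promoter windows are shown for the member with the largest difference downwards, Nedd4, and upwards, Smurf2. RefSeq's promoter table (build GRCm38.p6, from 250 bases before to 50 bases after each start) held windows for 4 of the 7 members, 5 windows in all. Nedd4 has 2 annotated starts that lie 30967 bases apart on the plus strand of chromosome 9. The windows were searched on both strands for TGTGGT and TGCGGT, 2 forms of the core motif of Runt domain factors. Capitals mark a match, here its reverse complement.
Nedd4, upstream start, chr9:72662081-72662380, plus strand: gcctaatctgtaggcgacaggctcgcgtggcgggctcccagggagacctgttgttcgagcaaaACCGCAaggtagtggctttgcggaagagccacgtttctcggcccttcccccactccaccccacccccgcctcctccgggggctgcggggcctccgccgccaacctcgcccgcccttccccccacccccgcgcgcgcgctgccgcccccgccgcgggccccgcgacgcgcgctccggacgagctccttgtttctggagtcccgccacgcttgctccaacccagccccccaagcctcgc
Nedd4, downstream start, chr9:72693048-72693347, plus strand: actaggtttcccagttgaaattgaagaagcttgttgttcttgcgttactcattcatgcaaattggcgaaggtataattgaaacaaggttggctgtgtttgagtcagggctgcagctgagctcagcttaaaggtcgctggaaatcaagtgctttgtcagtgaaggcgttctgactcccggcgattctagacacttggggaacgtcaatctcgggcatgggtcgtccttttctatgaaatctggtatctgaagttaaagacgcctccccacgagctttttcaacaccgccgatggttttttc
Smurf2, chr11:106920666-106920965, minus strand: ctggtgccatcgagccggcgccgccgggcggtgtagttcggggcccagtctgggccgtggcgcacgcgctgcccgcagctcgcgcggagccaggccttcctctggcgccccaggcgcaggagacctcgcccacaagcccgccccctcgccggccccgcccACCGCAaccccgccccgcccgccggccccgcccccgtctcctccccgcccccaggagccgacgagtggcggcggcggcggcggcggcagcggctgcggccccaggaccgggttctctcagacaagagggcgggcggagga
The upstream Nedd4 window held 1 TGCGGT, beginning 187 bases before the start, and the downstream window held 0 of either motif. The Smurf2 window also held 1 TGCGGT, beginning 90 bases before the start, while the windows of Smurf1 and Wwp2 held 0. Of all 32851 promoter windows, 6.45% held TGCGGT, 16.8% held TGTGGT and 22.4% held at least 1 of them. Whether Runx2 binds at any of these matches was not tested. The upstream Nedd4 window was 73.0% G and C, against 46.7% in the downstream one. Which of the Nedd4 starts was used in these cells was not analysed here, because the array gives 1 value for the gene.

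Nedd4, the founding member of the family, was far lower in Runx2-/- pDCs than in wild-type pDCs. Its intensity was 147.0 units in the Runx2-/- sample, against 1592 units in the wild-type sample. On the log2 scale these levels were 7.20 in Runx2-/- and 10.64 in wild type, a difference of -3.44 and 10.8-fold lower in the Runx2-/- sample. The Runx2-/- level lay below the brightness level of 7.54, the median of all named genes on that array, whereas the wild-type level was above that of 92.5% of named genes on its own array. The deposited table has no detection call, so whether the Runx2-/- value stands above background is not known. Adding 50 units to both intensities before taking log2, which damps dim values, gave -3.06. Nedd4 was measured by 1 probe set.

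A brightness filter kept genes that reached, on either array, the midpoint of the named genes' levels there, 7.54 in log2 units on the Runx2-/- array and 7.61 on the wild-type array. All 7 members passed, Nedd4 only through its wild-type level. Among the 10337 genes past this filter, 1.17% had a Runx2-/- value 2-fold or more below the wild-type value and 0.793% had one 2-fold or more above it. Of the 7 members, 1 (Nedd4) was 2-fold or more lower and 0 were 2-fold or more higher, a count that the choice of the list fixes in part. Nedd4 had the seventh lowest difference of all filtered genes by rank, with 6 genes lower.

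**Figure D1:**
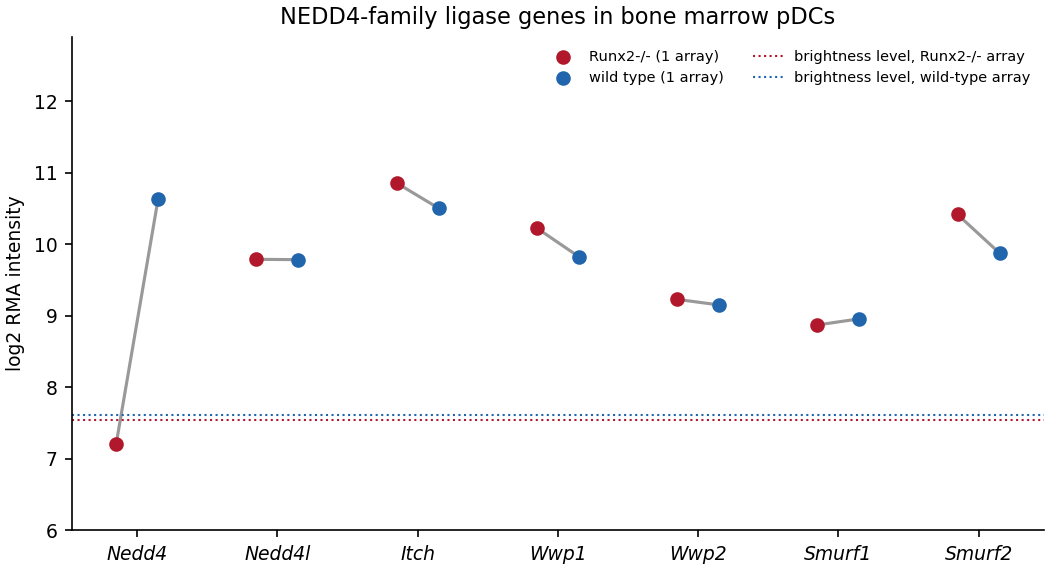
Levels of the 7 members as log2 RMA intensity (vertical axis), with the Runx2-/- array (red) left of the wild-type array (blue), 1 array each, and dotted lines at the median of all named genes on each array. Nedd4 is at 7.20 in Runx2-/- and 10.64 in wild type, while the other members lie above both lines on both arrays.

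None of the 6 relatives of Nedd4 was 2-fold or even 1.5-fold apart between the arrays. Smurf2, Wwp1 and Itch were modestly higher in Runx2-/- pDCs, Wwp2 and Nedd4l were nearly equal, and Smurf1 was slightly lower. The median difference of the 6 relatives was 0.22 on the log2 scale, beside -0.014 over all filtered genes and 0.10 over 15 HECT ligases outside the family. This median takes Smurf2 from its brighter probe set, and would be lower with the mean of the Smurf2 probe sets. Of the filtered genes, 3.02% were 1.5-fold or more higher in Runx2-/- and 3.86% were 1.5-fold or more lower.

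Smurf2, a ligase first described for its action on SMAD proteins and TGF-beta receptors, had the highest difference of the family. Its brighter probe set read 1365 units in the Runx2-/- sample and 939 units in the wild-type sample, levels of 10.41 and 9.87 on the log2 scale, a difference of 0.54 (1.45-fold). Of the filtered genes, 3.58% had a difference as high or higher. A second Smurf2 probe set was dim, at 41.1 units in Runx2-/- and 44.0 units in wild type, and its difference was -0.099. The mean of both Smurf2 probe sets gave 0.22. Smurf1, its closest relative, which acts on SMADs of the BMP pathway and on RhoA, read 468 units in Runx2-/- and 496 units in wild type, a difference of -0.086.

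Wwp1, which acts on KLF transcription factors and on SMAD signalling, read 1197 units in Runx2-/- pDCs and 906 units in wild-type pDCs, a difference of 0.40 on the log2 scale (1.32-fold). A difference as high or higher was seen for 7.07% of filtered genes. Wwp2, known for acting on the adaptor TRIF, read 599.6 units in Runx2-/- and 568 units in wild type, a difference of 0.079. Wwp1 and Wwp2 were thus on the same side of 0, and neither reached 1.5-fold. The gene of the microRNA miR-140, Mir140, lies within Wwp2, and its own probe set was dim on both arrays, at 5.81 in Runx2-/- and 5.55 in wild type in log2 units.

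Itch, the ligase whose loss causes inflammatory disease in mice, read 1853 units in Runx2-/- pDCs and 1450.0 units in wild-type pDCs, a difference of 0.35 on the log2 scale (1.28-fold). As high or higher a difference was seen for 9.01% of filtered genes. Nedd4l, the closest relative of Nedd4 and the main regulator of the epithelial sodium channel, was equal on both arrays, at 884 units in Runx2-/- and 881 units in wild type. Its difference of 0.0048 was below 0 after quantile normalization (-0.058) and after a loess correction (-0.041), so it has no settled sign. Hecw1 and Hecw2, neuronal members of the family outside the 7, were below the brightness level on both arrays, with differences of -0.077 and -0.044.

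**Figure D2:**
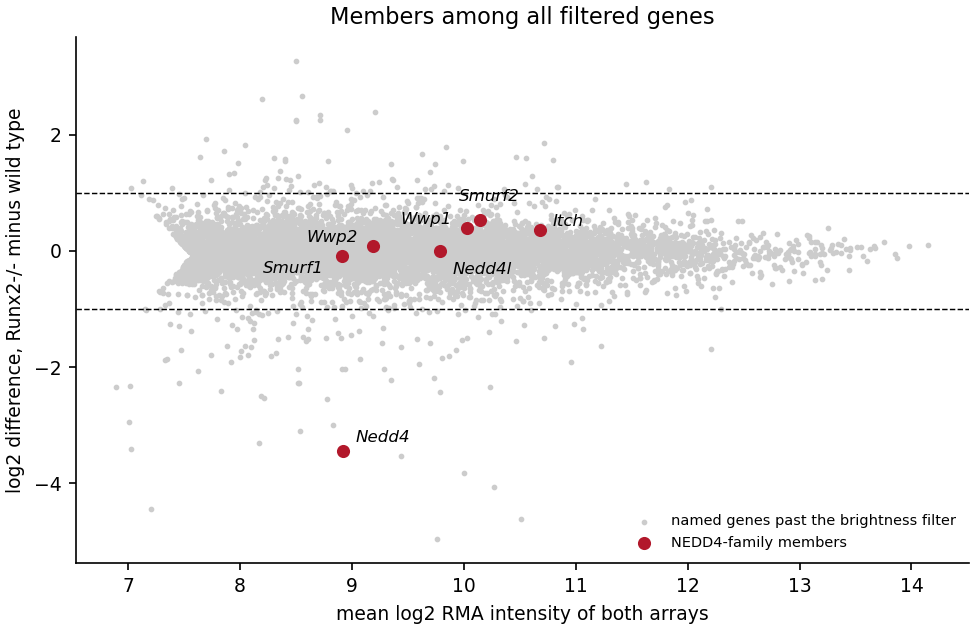
Log2 difference, Runx2-/- minus wild type (vertical axis), against the mean log2 intensity of both arrays (horizontal axis) for the 10337 filtered genes (grey) and the 7 members (red), with dashed lines at 2-fold. Nedd4, at -3.44, lies below all but 6 of the filtered genes, and the other 6 members lie between -0.086 and 0.54. Of the filtered genes, 90.0% lie within 0.5 of 0, and Smurf2 lies just above that band.

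Whether the relatives compensated for Nedd4 can be read here only at the level of mRNA, and a summed level over the family cannot be formed because intensities of different probe sets are not on one scale. What the arrays show is 3 relatives at 1.28-fold to 1.45-fold higher, 3 close to equal, and Nedd4 10.8-fold lower. The upper end is the brighter Smurf2 probe set, and the mean of both Smurf2 probe sets was 1.17-fold higher. The gap between the differences of Smurf2 and Nedd4 was 3.98 log2 units. Protein amount and ligase activity were not measured.

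The larger differences kept their direction under median centring, quantile normalization, a loess correction, the added 50 units and the mean of probe sets. This was largely fixed in advance and is no check of them. The scalings shifted the median of all named genes by only -0.019 to 0.011 log2 units. Among the members only Smurf2 has several probe sets, so their mean could not change the others. Over these settings, Nedd4 ranged from -3.46 to -3.06, Itch from 0.31 to 0.36, Wwp1 from 0.34 to 0.41 and Smurf2 from 0.22 to 0.55. Wwp2 ranged from 0.024 to 0.088 and Smurf1 from -0.14 to -0.076, while Nedd4l crossed 0, from -0.058 to 0.014.

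**Figure D3:**
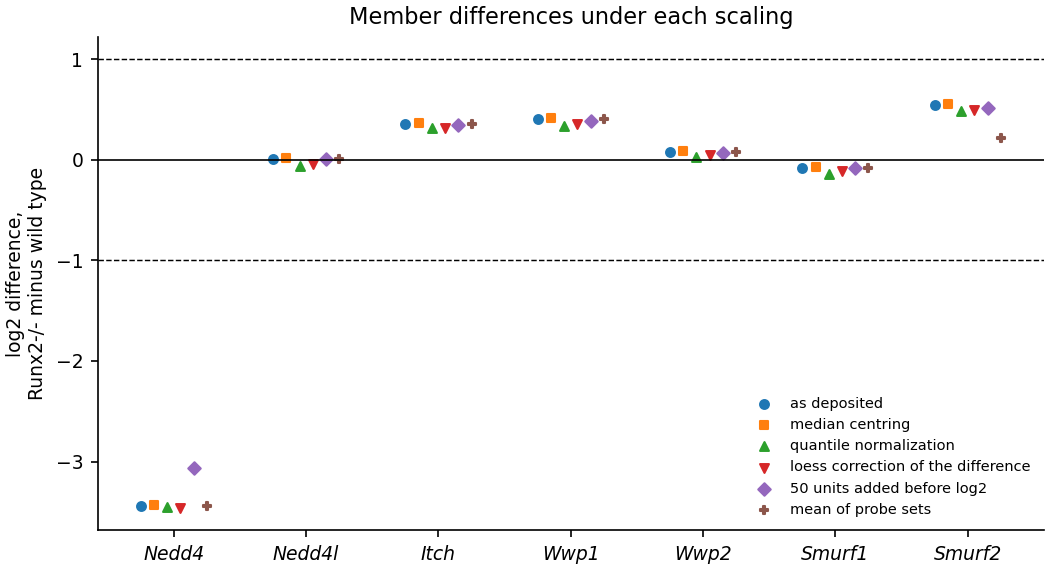
Log2 difference, Runx2-/- minus wild type (vertical axis), of each member under 6 ways of scaling or combining the values (symbols), with dashed lines at 2-fold. Nedd4 stays between -3.46 and -3.06, and the lone wide step among the relatives is Smurf2, at 0.22 with the mean of its probe sets.

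Genes listed as markers of other cell types also differed between the 2 samples. Markers of pDCs were bright on both arrays, with Siglech at 13.55 in Runx2-/- and 13.48 in wild type, Tcf4 at 13.11 in Runx2-/- and 13.16 in wild type, and 0 of 14 measured pDC markers 2-fold apart (median -0.068). Of the 14, 3 were 1.5-fold or more lower in Runx2-/-, beside 3.86% of all filtered genes. They were Lag3 (-0.74), Spib (-0.69) and Irf7 (-0.68), while Pacsin1 was at -0.56 and Ly6d at -0.46. Of all 19938 named genes, 0.436% were 2-fold or more higher and 0.647% 2-fold or more lower in Runx2-/-. Of 12 neutrophil and granulocyte precursor markers, 12 were below 0 and 11 were 2-fold or more lower in Runx2-/-, with a median difference of -2.15. Erythroid markers were at least 2-fold lower in 5 of 8 (median -1.72), and platelet and megakaryocyte markers in 2 of 8 (median -0.56). For monocyte and macrophage markers 2 of 9 were lower (Ccr2 and Lyz2) and 0 higher. For conventional dendritic cell markers 1 of 10 was lower (Itgax) and 1 higher (Ccr7). For B cell markers 2 of 11 were lower (Blk and Cd72) and 2 higher (Cd22 and Bank1). For T cell markers 1 of 10 was lower (Thy1) and 1 higher (Cd8a). For NK cell markers 0 of 9 were lower and 2 higher (Klrk1 and Klra8). Several listed genes were bright on both arrays, such as Clec9a (12.09 in Runx2-/- and 11.93 in wild type) and Cd4 (12.18 in Runx2-/- and 11.42 in wild type). Cd3d was dim, at 6.13 in Runx2-/- and 6.24 in wild type. Whether the level of a marker came from other cells or from expression in the pDCs was not tested for any of these lists. Y-linked Eif2s3y was at 4.98 in Runx2-/- and 9.42 in wild type, Uty and Kdm5d were also lower, by -2.94 and -2.27, and Xist was high on both arrays. The part of other cell types and of the sex of the cells in the difference of Nedd4 was not tested. In such bulk samples, fewer cells of a type and less RNA per cell cannot be told apart, and Runx2 itself had 0 probe sets under its name.

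Genes with a difference most like that of Nedd4 were named by closeness of the log2 difference over the 2 arrays, among filtered genes. The 5 nearest were Ighg3, an immunoglobulin heavy chain gene (-3.41), Igkv6-20, a light chain variable gene (-3.54), S100a8, a calcium-binding protein of neutrophils (-3.31), Il12rb2, a chain of the interleukin-12 receptor (-3.09), and Lcn2, a neutrophil granule protein (-3.83). Of these, S100a8 and Lcn2 belong to the neutrophil markers above. A list by 1 difference on 2 arrays shows likeness in size alone.

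Genes next to Nedd4 on chromosome 9 did not share its difference. In RefSeq's gene order, the 3 nearest named genes on one side were Rfx7 (0.13), Tex9 (0.64) and Mns1 (-0.44), and on the other Prtg (-0.035), Pygo1 (-0.46) and Dnaaf4 (0.16), with Mns1, Prtg and Dnaaf4 below the brightness filter. Rfx7, the direct neighbour and a DNA-binding factor, was bright, at 10.96 in Runx2-/- and 10.84 in wild type. Over all 7 members, 0 of 42 neighbours were 2-fold apart, beside 1.08% of all named genes, and their differences ran from -0.72 (Alpk2, near Nedd4l and dim) to 0.64 (Tex9). Polg2 and Cep95, on one side of Smurf2, were at 0.49 and 0.42, close to the 0.54 of Smurf2, while Ddx5 between Polg2 and Cep95 was at -0.080 and Kpna2 on the other side at -0.24.

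**Figure D4:**
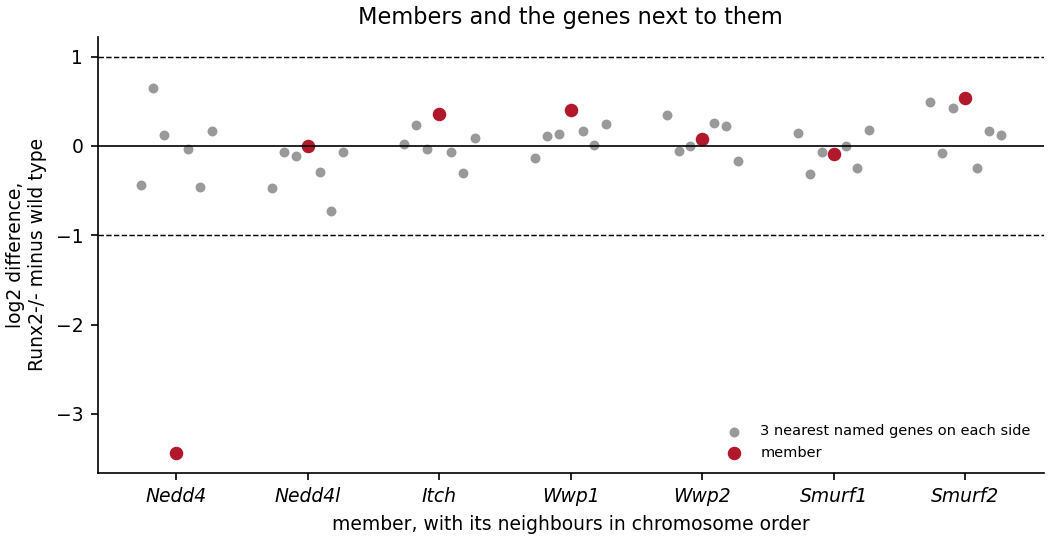
Log2 difference, Runx2-/- minus wild type (vertical axis), of each member (red) and of the 3 nearest named genes on each side (grey, in chromosome order), with dashed lines at 2-fold. No neighbour is past 2-fold, and Nedd4 at -3.44 lies apart from its neighbours, which run from -0.46 to 0.64.

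Genes around the ligases, from adaptors to substrates and sorting machinery, differed little. The 11 lists with a measured gene held 196 different genes, 160 of them past the filter. Of these 160, 0 were 2-fold higher and 0 were 2-fold lower, beside 0.793% and 1.17% of all filtered genes. At 1.5-fold, 3 (1.88%) were higher and 5 (3.12%) lower, beside 3.02% and 3.86% of all filtered genes. The median difference over the 196 genes was -0.050, beside -0.033 over all named genes, so the lists were near the background in these respects. Ubiquitin itself was not analysed here.

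Adaptors that bring the ligases to substrates or membranes had a median of -0.18 over 22 measured genes, beside -0.033 over all named genes. Arrdc4, an arrestin-like adaptor, was the highest, at 9.41 in Runx2-/- and 8.71 in wild type (0.70), followed by Prrg4 (0.48) and Ndfip2 (0.32). Pmepa1, a membrane protein with PPxY motifs that dampens TGF-beta signalling, was the lowest, at 9.66 in Runx2-/- and 10.45 in wild type (-0.80). Laptm4b, a lysosomal membrane protein, differed by -0.64, and Smad7, which carries Smurf ligases to the TGF-beta receptor, by -0.52. The paired adaptors Ndfip1 and Ndfip2, membrane proteins that activate Itch and Nedd4, were on opposite sides of 0, with Ndfip1 at 10.36 in Runx2-/- and 10.58 in wild type (-0.22).

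Among enzymes upstream of the ligases, 2 kinase genes were 1.5-fold or more lower in Runx2-/-, of 14 kinase and 14-3-3 genes past the filter. Over all filtered genes this share was 3.86%, and over the filtered genes of the 11 lists it was 3.12%. Of 16 kinases and 14-3-3 proteins that act on the family (median -0.11), Fyn, a tyrosine kinase that phosphorylates Itch, differed by -0.64, Abl1 by -0.62 and the 14-3-3 gene Ywhag by -0.44, and Mapk8, the kinase JNK1 that activates Itch, by 0.28, Atm by 0.23 and Sgk3 by 0.21. Of 10 E1 and E2 enzymes (median -0.078), Ube2l6 differed by 0.40, Ube2w by 0.22 and Uba6 by 0.18, and Ube2e3 by -0.37, Ube2d1 by -0.30 and Ube2d2a by -0.20. Ube2l3, an E2 that works with HECT ligases, was at 11.39 in Runx2-/- and 11.53 in wild type.

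HECT ligases outside the family differed little. The 15 measured ones lay between -0.19 (Ube3b) and 0.24 (Ube3c), with a median of 0.10, and next to these ends were Herc6 (-0.18), Hectd3 (-0.11), Hectd4 (0.16) and Herc4 (0.15) among those past the filter. Of the 7 members, 3 (Smurf2, Wwp1 and Itch) lay above this range, 1 (Nedd4) below it and 3 within it, which is a description of these arrays and not a test. With the mean of probe sets, Smurf2 (0.22) was within that range, which left 2 members above it. RING-type ligases of immune receptors had a median of -0.082 over 22 genes. Peli1, an E3 of Toll-like receptor signalling, was highest at 0.61 and Birc2, an inhibitor-of-apoptosis ligase, next at 0.57, followed by Rnf135 at 0.32, while Marchf1, which ubiquitinates MHC class II, differed by -0.56, Peli2 by -0.38 and Cblb, a target of Nedd4 and Itch, by -0.36. The 12 deubiquitinases had a median of 0.13, with Usp2 and Usp15 at 0.39, Cyld at 0.37, Otub1 at -0.45, Usp36 at -0.18 and Usp11 at -0.051.

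Substrates were spread on both sides of 0. Receptors and signalling proteins had a median of 0.0089 over 35 genes, with Cxcr4, a chemokine receptor that Itch sends to lysosomes, at 11.84 in Runx2-/- and 11.21 in wild type (0.62), Egfr at 0.46 and Igf1r at 0.37, and with Erbb3 at -0.55, Csf2rb, a cytokine receptor chain, at -0.53 and Wbp2 at -0.46. Transcription factors had a median of -0.080 over 25 genes. Klf2, a quiescence and trafficking factor degraded through Smurf1 and Wwp1, was the lowest, at 8.65 in Runx2-/- and 9.60 in wild type (-0.95), followed among those past the filter by Ski (-0.47) and Runx3 (-0.38). Runx1 (0.47), Skil (0.45) and Smad4 (0.16) were the highest of those past the filter. Ion channels and transporters had a median of -0.060 over 16 genes, of which 6 passed the filter, with Slc11a2 at 0.27, Slc12a3 at 0.25, Slc7a5 at 0.18 and, the lone one below 0, Slc1a5, a glutamine transporter, at -0.19. These are mRNA levels, whereas the ligases act on the proteins.

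Endosomal sorting genes, which take over ubiquitinated cargo, had a median of -0.074 over 26 genes, beside -0.033 over all named genes. Tsg101, the ESCRT-I subunit that binds ubiquitin, was highest at 10.40 in Runx2-/- and 9.90 in wild type (0.50), with Eps15 at 0.34 and Chmp2a at 0.27. Gga2 (-0.54), Chmp4b (-0.46) and Epn2 (-0.42) were the lowest.

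**Figure D5:**
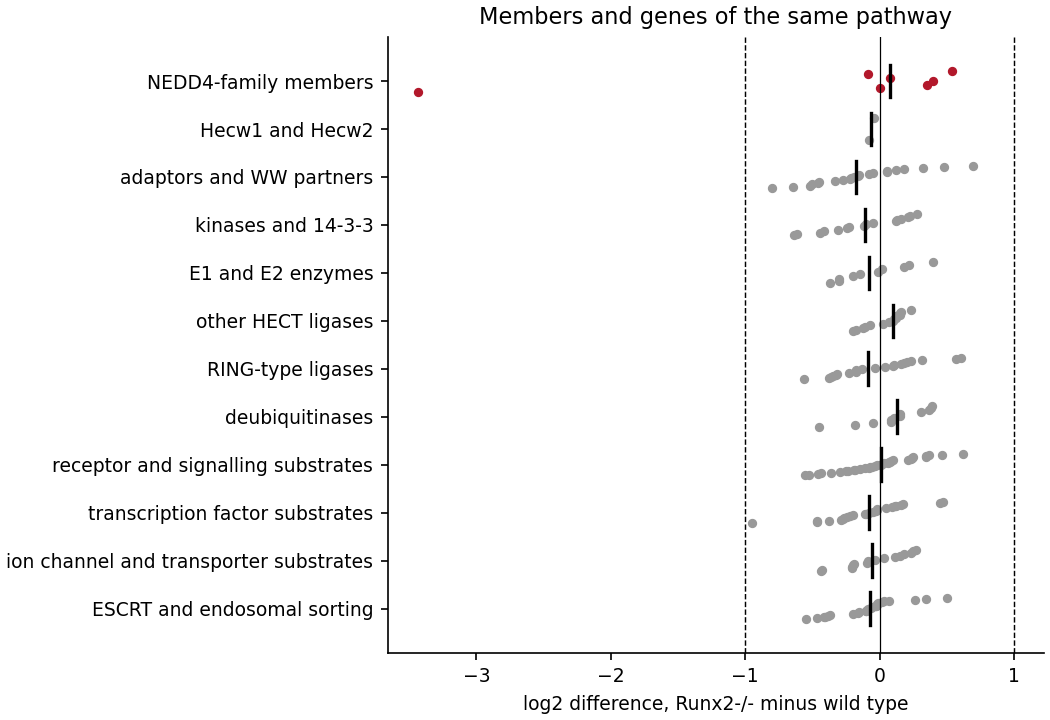
Log2 difference, Runx2-/- minus wild type (horizontal axis), of the 7 members (red) and of each measured gene of 11 pathway lists (grey, 1 point per gene, in no vertical scale within a row), with black bars at the medians and dashed lines at 2-fold. Nedd4 at -3.44 is the lone point past 2-fold, and the nearest list gene is Klf2 at -0.95.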

How the data were processed

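The deposited table holds linear intensities of 2 arrays over 35556 probe sets, with column medians of 181.7 units in Runx2-/- and 182.9 units in wild type. The authors made these intensities with RMA, per the submitters' processing notes, a method that corrects background, equalises array distributions and combines probes. Although RMA output is usually on a log2 scale, the deposited values are linear. The set of arrays normalised together, the software and its version were not given in the sources used here. Distributions that RMA equalises show differences relative to the other genes of an array. The number of arrays limits the precision, and dim probe sets have no detection call.

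Values were taken to log2 and wild type was subtracted from Runx2-/-. The platform annotation gave 21789 probe sets exactly 1 symbol, 1621 several and 12146 none, and only the first kind was named. Calls used 2-fold and no test. The step that counts them was run on simulated data with planted differences, which says nothing of the spread between arrays. Members and lists were chosen with earlier results of these data known. Named genes are the members and up to 3 list genes furthest from 0 on each side past the filter. Some of the 3 nearest named genes on each side of a member, the 5 genes with differences nearest to that of Nedd4 and some of the markers are also named. Some further genes are named for their role. Alternatives were median centring, quantile normalization, loess (span 0.3), adding 50 units, the mean of probe sets, a filter at percentile 25 or none, and 1.5-fold. A planned search for PPxY motifs was not run. Sequences are from RefSeq (GRCm38.p6). Loess was run with statsmodels 0.14.6 and figures were drawn with matplotlib 3.10.9, under Python 3.11.15 with pandas 2.3.3 and numpy 2.4.6.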

Additional observations from a re-analysis of the deposited data

How the results depend on the processing

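Calls of the members were the same under each of the 8 settings, with 1 lower and 0 higher, including no filter and 1.5-fold. This was largely fixed in advance and is no check of the call. The list was drawn up with the low value of Nedd4 known. All 7 members passed the filter, so a looser filter could not change their calls. Adding 50 units moved Nedd4 to -3.06, by the construction of that setting, which shrinks dim values. The mean of probe sets moved Smurf2 to 0.22, because the difference of its second probe set is -0.099. Quantile normalization brought 1 pathway gene, Klf2 (-1.01), past 2-fold lower. At 1.5-fold, by the lower threshold, 312 named genes were higher and 399 lower, 3 pathway genes were higher (Arrdc4, Cxcr4 and Peli1) and 5 lower (Klf2, Pmepa1, Laptm4b, Fyn and Abl1), and 2 genes next to a member were past the threshold, against 82, 121, 0, 0 and 0 at 2-fold. The search for PPxY genes was not run, since protein sequences were not used here. No paired analysis was possible because each genotype has 1 array. The spread between mice and between arrays is unknown, so no difference, large or small, has a replicate check.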

Other observations

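Of 2709 filtered genes at or above 10 log2 units on the wild-type array, 5 lay below the brightness level on the Runx2-/- array. They were the platelet chemokine gene Ppbp (7.29 in Runx2-/- and 12.24 in wild type), Nedd4, Il12rb2 (6.99 in Runx2-/- and 10.08 in wild type), the metalloproteinase inhibitor gene Timp2 (7.33 in Runx2-/- and 10.33 in wild type) and the glutamate receptor gene Grm8 (7.51 in Runx2-/- and 10.05 in wild type). In the opposite direction, of 2717 genes as bright on the Runx2-/- array, 1 was below the brightness level on the wild-type array, the uncharacterised 1700048O20Rik (10.14 in Runx2-/- and 6.87 in wild type). This split was chosen after the values were seen.

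Other families of the ubiquitin system, grouped by gene symbol after the values were seen, held 1 gene past 2-fold among those past the filter. It was Rnf187, at 10.39 in Runx2-/- and 11.74 in wild type (-1.35), the only 1 of 57 Rnf genes, beside 1.17% of all filtered genes at least 2-fold lower. Of 33 Trim genes, 45 Fbxl, Fbxo and Fbxw genes, 42 Usp genes, 26 Ube2 genes, 20 Klhl genes, 6 Asb genes and 43 proteasome genes, 0 were 2-fold apart. Nearest to it were Klhl41 (0.90), Ube2c, an E2 of the mitotic cyclin-destroying complex (-0.83), the proteasome subunit gene Psmb4 (-0.83) and the deubiquitinase gene Usp33 (0.82). Their medians ran from -0.10 (Ube2) to 0.11 (Usp).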
